A study of Mus musculus with 8 samples.

Results

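The regions described here were H3K27ac peaks of wt P5424 cells that lay between protein-coding genes and away from their starts. A peak was taken when its centre fell outside every protein-coding gene body and over 2.5 kb from every protein-coding gene start on GRCm38. This rule gave 10149 of the 34553 peaks in the wt list, or 29.4% (95% exact binomial interval 28.9% to 29.9%), and they are called intergenic distal peaks below. The study used CRISPR/Cas9 to remove IkE120, an enhancer upstream of *Ikzf1*, the gene of the lymphoid transcription factor Ikaros, from P5424 cells, a mouse line that resembles T cell precursors. H3K27ac was mapped by ChIP-seq in unedited (wt) cells and in ΔIkE120 cells, in which the deletion was homozygous, with 1 library for each genotype. The ΔIkE120 cells were 1 clone. P5424 cells derive from a thymic tumour of a mouse without Rag1 and p53, and both genotypes share that background. Whether the ChIP-seq cells had been stimulated with PMA/ionomycin is not stated in the labels. Without replicates no test was made, and every interval given here covers counting error only. The values came from called peaks, and the sequencing depth behind them is unknown. The q-value of a peak depends on depth as well, so its differences between genotypes are descriptions only.

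Acetylation of a lysine in the tail of histone H3 marks nucleosomes beside active promoters and active enhancers. An enhancer can act on a gene from a great distance, and in T cell precursors several genes of the lineage, among them *Bcl11b*, *Gata3*, *Myc* and the T cell receptor genes, are known to depend on such distal elements. A peak between genes is therefore a candidate enhancer, but the mark alone does not say which gene it serves.

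Intergenic distal peaks were short and weak beside the peaks at gene starts. Their median length was 491 bp (482 to 499 bp), the middle 50% of them ran from 317 to 797 bp, and the extremes were 215 and 3425 bp. The median was 898 bp for the 12325 wt peaks within 2.5 kb of a start, and 467 bp for the 12079 peaks that were inside genes and also over 2.5 kb from starts. Strength was read from the -log10 q-value and the fold enrichment over background that the peak caller gave each peak. The median -log10 q was 3.13 for intergenic distal peaks, 2.92 inside genes and 10.1 near starts. The median fold enrichment was 2.94, 2.81 and 3.80, in the same order. In the strongest decile of the wt list by -log10 q, which began at 15.6, there were 172 intergenic distal peaks, or 1.69% of them, against 25.7% of the peaks near starts. Intergenic distal peaks covered 6.26 Mb of the 25.2 Mb in the wt list.

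The median intergenic distal peak was 34.6 kb (33.5 to 35.8 kb) from the nearest protein-coding start. The middle 50% lay from 14.4 to 87.0 kb away, and the range was 2.507 kb to 2.35 Mb. The largest group, 4430 peaks or 43.6%, was 10 to 50 kb from a start, and 1722 (17.0%) were closer than 10 kb. Another 1789 were 50 to 100 kb away, 1510 were 100 to 250 kb away, 545 were 250 to 500 kb away and 153 were farther than that. Most of these peaks thus had a gene start within 50 kb. The peak was upstream of the nearest start for 6474 (63.8%), at a median of 26.7 kb, and past the other end of that gene for 3361 (33.1%), at a median of 58.9 kb, since the gene's own length then adds to the distance. The strand of the nearest gene was not known for the other 314. Around the limit itself, 108 peaks outside gene bodies were 2.5 to 3 kb from a start and 113 were 2 to 2.5 kb away. The median lengths of these neighbours were 474 and 458 bp, and 73.1% and 69.0% of them were overlapped in ΔIkE120 cells.

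To ask how far the distal H3K27ac landscape was shared by the genotypes, the wt peaks were compared with the 29902 peaks of ΔIkE120 cells. At least 1 base of a ΔIkE120 peak overlapped 74.4% of all wt peaks, and in the other direction a wt peak overlapped 86.4% of the ΔIkE120 list. Among intergenic distal peaks, 6607 were overlapped and 3542 were not, a share of 65.1% (64.2% to 66.0%). The share was 63.8% (62.9% to 64.6%) for peaks inside genes and 92.6% (92.1% to 93.0%) for peaks near starts. By the same rule the ΔIkE120 list held 8175 intergenic distal peaks, and 6667 of these, or 81.6% (80.7% to 82.4%), met a peak of the wt list. The ΔIkE120 list therefore had 0.805 of the wt number, and its peaks of this kind covered 0.796 of the bases. The ΔIkE120 list held 9817 peaks inside genes against 12079 in wt, and 11910 near starts against 12325. Of the bases in wt intergenic distal peaks, 62.0% were also in a ΔIkE120 peak, against 61.7% of the bases inside genes and 87.2% near starts.

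The share overlapped followed the strength and length of the wt peak. Overlapped intergenic distal peaks had a median length of 654 bp and a median -log10 q of 4.21, and the others 320 bp and 2.17. Of the 2239 peaks of up to 300 bp, 30.2% (28.3% to 32.2%) were overlapped. This share was 52.4% from 300 to 500 bp, 83.5% from 500 to 1000 bp and 98.2% from 1000 to 1500 bp, and above 2000 bp all 76 peaks were overlapped. By deciles of -log10 q over the whole wt list, it rose from 27.3% (24.8% to 29.8%) in the weakest to 100% of the 172 peaks in the strongest. Of the 671 intergenic distal peaks with a -log10 q of 10 or more, 2 had no overlap, so that the peaks missing from the other list were nearly all weak calls.

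By deciles of strength, the gap to the peaks near starts was smaller as a mean but remained among the weak peaks. The mean of the shares over the 10 deciles, each with the same weight, was 73.0% for intergenic distal peaks, 74.2% inside genes and 79.0% near starts. The difference from peaks near starts was 6.07 percentage points in this mean and 27.5 over the whole list. In 9 of the 10 deciles the share near starts was above that of intergenic distal peaks, and in the strongest decile both were 100%. The exact interval near starts lay above that of intergenic distal peaks in 5 deciles. In decile 2, counted from the weakest, the shares were 53.0% (47.5% to 58.4%) near starts and 37.8% (35.3% to 40.4%) for intergenic distal peaks, and in decile 4 they were 71.3% (67.3% to 75.1%) and 58.8% (56.1% to 61.5%). From decile 7 upward they were all above 96%, which brings the mean difference down. The share inside genes minus that of intergenic distal peaks was -1.33 percentage points over the whole list but 1.28 as a mean over deciles, so the sign of this small difference depends on the weight given to strong and weak peaks. In no decile was the share of intergenic distal peaks above that inside genes, and in no decile did the exact intervals of these shares separate.

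The share overlapped varied little with distance up to 500 kb from a start. It was 65.5% (63.2% to 67.8%) closer than 10 kb, 66.4% (65.0% to 67.8%) from 10 to 50 kb and 61.3% (58.7% to 63.7%) from 100 to 250 kb. From 500 to 1000 kb it was 54.7% (46.0% to 63.1%) of 139 peaks. Nearness to another intergenic distal peak went with a larger difference. With another within 1 kb, 73.0% (71.4% to 74.6%) of 3166 peaks were overlapped, and with none within 50 kb, 57.2% (54.9% to 59.5%) of 1836. The median -log10 q of these groups was 3.37 and 2.95, and the part of strength in this difference was not tested. By chromosome the share ran from 60.6% (57.3% to 63.8%) of 903 peaks on chromosome 2 to 70.9% (66.6% to 74.9%) of 477 on chromosome 4.

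Between merged protein-coding gene bodies there were 19648 intervals, and 3583 of them (18.2%) held an intergenic distal peak. A single peak was found in 1683. At the other end, 148 intervals with 10 or more held 24.6% of all these peaks, and 576 intervals held 50% of them.

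The most intergenic distal peaks, 113, were in the interval between *Gm36448* and *Dad1* (chr14:52541357-54235484), which holds most of the joint T cell receptor alpha and delta locus. Receptor V, D, J and C segments are not listed as protein-coding, so the rule treats this locus as lying between genes. Of these peaks 72 were overlapped in ΔIkE120 cells and 41 were not. The fullest 100 kb, toward the *Dad1* end of the locus (chr14:54097438-54194240), held 22, of which 19 were overlapped. The strongest, chr14:53875609-53876808, lay over the V segment *Trav21-dv12*, at a -log10 q of 18.7 in wt and 9.86 for the ΔIkE120 peak that covered 91.2% of it, while the fold enrichment was 3.28 and 3.21.

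The interval between *Myc* and *Gsdmc* (chr15:61990362-63775970) came next with 60 peaks, of which 40 were overlapped. *Myc* encodes a transcription factor that drives growth of proliferating thymocytes, and the long stretch beyond it is known for distant *Myc* enhancers used in blood cells. Its strongest peak (chr15:62037647-62038903), whose -log10 q was 14.8 in wt and 21.1 in the other genotype, covered the start of *Pvt1*, a lncRNA, and 9 peaks had their centre in that gene. The fullest 100 kb, however, were chr15:63241492-63341489, at 1256 kb from the *Myc* start, where 11 of 13 peaks were overlapped.

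*Satb1*, a chromatin organizer of thymocytes, and *Kcnh8* flank the interval with 49 peaks (chr17:51833291-52602708), 32 of them overlapped. The interval between *Gm52008* and *Bcl11b* (chr12:107112137-107910402) held 47, 34 of them overlapped. *Bcl11b* encodes a transcription factor needed for commitment to the T lineage. Within 100 kb, at 190 kb from the *Bcl11b* start, there were 18 peaks (chr12:107722671-107813267), of which 14 were overlapped, and the ΔIkE120 list held 45 peaks in the interval as a whole. Its strongest peak, chr12:107183550-107184518, was near the opposite end, at a -log10 q of 24.3, and of 20.6 in ΔIkE120 cells.

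The next in number was the interval between *Prickle1* and *Adamts20* with 39 peaks, 24 overlapped. Those between *Rps24* and *Zmiz1*, which encodes a cofactor of Notch1, and between *Tbc1d1* and *Gm38457* had 32 each, 24 and 21 of them overlapped. In the latter, the strongest peak (chr5:64609669-64610486) had *Klf3* as its nearest start. The interval between *Prl5a1* and *Sox4*, a transcription factor gene of early thymocytes, and the one between *Nr5a2* and *Ptprc*, the gene of CD45, held 30 each, with 21 and 20 overlapped. In the former, 27 peaks were inside a single lncRNA gene, *2610307P16Rik*. The last named here, with 28 each, were *Rpl34* to *Lef1* and *Cd83* to *Jarid2*, with 22 and 21 overlapped. *Lef1* encodes a partner of beta-catenin in early T cells, and 13 of the peaks in its interval lay within 100 kb, of which 11 were overlapped. The shares overlapped in these 11 intervals, 61.5% to 78.6%, lay on both sides of the 65.1% for all intergenic distal peaks.

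Counting per length picked out small intervals. Among intervals with at least 5 peaks, the densest was between *Supt4a* and *Tspoap1* (chr11:87743624-87758193), with 6 in 14.6 kb, or 41.2 per 100 kb against 0.625 over all intervals. It holds the gene of miR-142, a miRNA of blood cells, and all 6 peaks were overlapped. Between *Cd8b1* and *Cd8a*, the genes of the CD8 coreceptor, there were 12 in 35.9 kb (chr6:71337493-71373426), of which 8 were overlapped. Next in density were *Klrb1b* to *BC035044* in a cluster of NK cell receptor genes, *Sephs2* to *Itgal*, which encodes the integrin chain CD11a, and *Ankdd1a* to *Plekho2*, with 6, 6 and 7 peaks.

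Neighbouring peaks formed runs in some intervals. Joined at gaps of up to 10 kb, the intergenic distal peaks formed 6465 groups, of which 4289 were single peaks. The largest by number was 15 peaks over 53.6 kb between *Notch1* and *Egfl7* (chr2:26507327-26560911), 13 of them overlapped. *Notch1* encodes the receptor that starts and sustains the T lineage program. A group of 14 was found between *Tcf7*, which encodes an early T lineage factor, and *Vdac1*, with 11 overlapped. Groups of 13 lay beside *Klf13* and *Sdk2*, each with 11 overlapped, and between *Ly6m* and *Ly6e*, a gene of a lymphocyte surface protein family, with 12 overlapped. The share overlapped was 65.1% of all intergenic distal peaks. It was 73.0% of those with another within 1 kb and 66.4% of those with the nearest at 1 to 10 kb.

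Assigned to their nearest start, intergenic distal peaks were numerous around transcription factors of the T lineage. Of 27 such genes 23 had at least 1, with a median of 5 per gene, and 22 had a wt peak within 2.5 kb of a start. Over all 21787 protein-coding genes, 18.4% had at least 1 and the median was 0. Among the 10719 genes with a wt peak at a start, 24.8% did. The highest numbers in the list were at *Ets1* with 29, *Bcl11b* with 28, *Myc* with 25, *Satb1* with 22 and *Gata3* with 20. *Lef1* had 19, *Id2* 16, *Runx1* 14, *Myb* 13 and *Notch1* 10. The farthest of these peaks were 847 kb from *Ets1*, 907 kb from *Myc* and 923 kb from *Gata3*. Genes outside the list ranked higher, among them *Dad1* with 88, *Gsdmc* with 38 and *Gm52008* with 32. Here and in the lists below, counts were not adjusted for the length of the intervals beside a gene, whose part was not tested. A wt peak within 2.5 kb of an annotated start was absent at *Ets1*, *Hes1* and *Id3*, although 29, 5 and 5 intergenic distal peaks had these genes as their nearest. No intergenic distal peak had *Ikzf3*, *Zbtb7b* or *Bach2* as its nearest start. Of the 261 peaks of the list 178 or 68.2% (62.2% to 73.8%) were overlapped, near the 65.1% of all intergenic distal peaks. At *Satb1* this was 18 of 22, at *Gfi1* 5 of 5 and at *Gata3* 10 of 20.

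Genes of the pre-TCR, of surface receptors and of signalling ranged from none to 28 such peaks, with a median of 2.5. Of 30 genes 19 had at least 1, or 63.3%. This share was 18.4% for all protein-coding genes and 24.8% for those with a wt peak at a start. There were 28 at *Ptprc*, 14 at *Cxcr4*, a chemokine receptor gene, 13 at *Cd2*, 11 at *Bcl6*, 8 at *Lat* and 7 at *Cd8a*. No intergenic distal peak had *Cd3d*, *Cd3g*, *Cd247*, *Ptcra*, *Lck*, *Zap70*, *Rag1*, *Rag2*, *Cd5* or *Il7r* as its nearest start, although all of these but *Il7r* had a wt peak at a start. Of the 122 peaks of this list 96 or 78.7% (70.4% to 85.6%) were overlapped, against 65.1% of all intergenic distal peaks, among them all 8 at *Lat*, an adaptor of the T cell receptor, and all 3 at *Cd3e*. *Il2ra*, the gene of CD25, had no wt peak at a start but 3 intergenic distal peaks, the strongest at a -log10 q of 16.5.

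MAPK, NFAT and immediate early genes respond to PMA/ionomycin and to the pre-TCR, and most of them had at least 1 such peak but few had many. Of 16 genes 14 had at least 1, or 87.5% against 18.4% of all protein-coding genes, the median was 1 and the list summed to 34, of which 21 or 61.8% (43.6% to 77.8%) were overlapped, an interval that includes the 65.1% of all. The highest numbers were 7 at *Dusp6*, a MAPK phosphatase, 6 at *Fos* and 5 at *Dusp2*. Of those at *Fos* 2 were overlapped, and *Fos* itself had no peak at a start in either list. Strong peaks without an overlap included chr12:85455483-85456041, 18.1 kb from *Fos*, with a -log10 q of 11.7, and chr15:101245934-101246301, 7.79 kb from *Nr4a1*, at 8.85. Only chr4:8647046-8647556, near *Chd7*, had a higher -log10 q among the peaks without an overlap. These peaks were picked after their values were seen.

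Markers of other cell types served to check the line. Of all protein-coding genes, 49.2% had a wt peak at a start and 18.4% had at least 1 intergenic distal peak. Of 12 T lineage markers 11 had a wt peak at a start and 6 had intergenic distal peaks, 83 in all, with 28 at *Bcl11b*, 20 at *Gata3* and 11 at *Thy1*. The exception at the start was *Il7r*. Among B lineage markers, *Ebf1* had a wt peak at a start and 2 intergenic distal peaks, and *Vpreb1* a peak at a start alone, while *Cd79a*, *Pax5* and *Ms4a1* had neither. Of 8 myeloid markers, *Mpo* and *Elane* had a wt peak at a start, and *Cebpb* had 9 intergenic distal peaks and *Itgam* 3. No intergenic distal peak had an erythroid or megakaryocyte marker as its nearest start (7 of 8 found in the annotation), although *Klf1*, *Hba-a1* and *Epor* had a wt peak at a start. Of 8 embryonic stem cell and non-blood markers, *Epcam* had 5 intergenic distal peaks and *Pou5f1* a wt peak at a start, and the others had neither. A peak within 2.5 kb of a start can belong to a neighbouring gene.

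Other antigen receptor loci carried far fewer than the alpha and delta locus, where 111 peaks fell between the outermost segments. There were 17 in the T cell receptor beta locus, of which 13 were overlapped, and 20 in the immunoglobulin heavy chain locus over 2754 kb, of which 10 were overlapped. The immunoglobulin kappa locus had 4, the T cell receptor gamma locus 1 and the lambda light chain locus 0. The beta locus held 1 of the longest, chr6:41533490-41536543, with 3054 bp across the J segments *Trbj1-1* to *Trbj1-7*, and a ΔIkE120 peak covered 98.5% of it. Counted without these loci, intergenic distal peaks numbered 9996, and *Myc* to *Gsdmc* was then the fullest interval with 60.

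The deletion itself lies in the region between *Zpbp* and *Ikzf1*, which contained 14 intergenic distal peaks. Of these 9 were between *Spata48* and *4930512M02Rik* and 5 between *4930512M02Rik* and *Ikzf1*. The intergenic distal peaks of ΔIkE120 cells covered 0.636 and 0.733 of the wt number of bases in these intervals, against 0.796 over all intervals. The strongest of the 14, chr11:11563705-11565348 with a -log10 q of 9.83, is inside *Gm11998*, a lncRNA gene, and holds IkE120. In ΔIkE120 cells a peak from 11564652 to 11565363 covered 697 of its 1644 bases, or 42.4%, and 947 bases were not covered. Its fold enrichment was 3.74 and its -log10 q 11.99, over 712 bp, against 2.58 and 9.83 for the longer wt peak, so these values come from unlike stretches. Deleted bases give no reads, so a comparison of the whole peak is not one of acetylation alone. The deleted segment is shorter than the uncovered part, so not all of the uncovered bases were deleted. Of the other 13 peaks 11 were overlapped. Those without an overlap, at 11519404 to 11519646 and 11569164 to 11569548, had a -log10 q of 1.47 and 2.11, below the median of intergenic distal peaks. Among the other overlapped peaks of *Spata48* to *4930512M02Rik*, -log10 q went both ways. It went from 3.46 to 9.05 at 11555559 to 11556118, and from 6.97 to 2.84 at 11569773 to 11570608. Fold enrichment at these went from 2.08 to 3.26 and from 2.49 to 2.36. Toward *Ikzf1*, all 5 peaks within *4930512M02Rik* to *Ikzf1* were overlapped, by 25.2% to 96.5% of their length. The nearest to the gene, 5.52 kb from its start (chr11:11679082-11679795), rose in -log10 q from 4.95 to 10.1 in ΔIkE120 cells, whereas the other 4 were lower there. Of these, that at 16.8 kb (chr11:11667387-11668850) went from 8.24 to 7.06, and the farthest from *Ikzf1* (chr11:11636086-11636922) from 4.45 to 2.28. Fold enrichment did not follow this pattern, since it was higher in ΔIkE120 cells at all of the 5 but the farthest, where it went from 3.35 to 3.04. At 5.52 kb it went from 2.88 to 4.24 and at 16.8 kb from 3.19 to 3.38. The ΔIkE120 peak at 5.52 kb was 432 bp long against 714 bp in wt, and the farthest was 211 against 837 bp. The values of these peaks thus also come from unlike stretches.

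By number, peaks without an overlap were most frequent in intervals with many peaks, with 41, 20, 17 and 15. The shares overlapped there were 63.7%, 66.7%, 65.3% and 61.5%, near the 65.1% of all intergenic distal peaks. Next were 13 in *Gm52008* to *Bcl11b*, where 72.3% were overlapped, and 13 in *Gm30733* to *Prex1* (chr2:166286590-166566344). In the latter only 6 of 19 peaks, or 31.6% (12.6% to 56.6%), were overlapped. The ΔIkE120 list had 7 peaks there, with 0.352 of the wt bases, against 0.796 over all intervals. *Prex1* encodes an activator of Rac. Among the 148 intervals with at least 10 peaks, the lowest share was 1 of 10 between *Tcp10c* and *Tcte2* (10.0%, 0.253% to 44.5%), followed by 2 of 10 between *Dlx4* and *Tac4* and 3 of 12 between *Nucb2* and *Xylt1*. Their wt peaks were of ordinary strength or weaker, with a median -log10 q of 2.89, 1.96 and 2.60. All were overlapped in 3 intervals, namely all 12 from the start of chromosome 9 to *Alkbh8*, 10 between *Tex44* and *Ptma*, and 10 between *Prss2* and *Ephb6*, which holds the end of the T cell receptor beta locus. Their wt peaks were strong, with a median -log10 q of 8.58, 6.09 and 6.28 against 3.13 over all intergenic distal peaks. Whether reads from repeated sequence gather in the peaks at the start of chromosome 9 was not tested, since no annotation of repeats was used.

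The highest -log10 q of an intergenic distal peak, 88.2, was at chr9:35305189-35305652 in the lncRNA gene *Gm33838*, followed by 86.6 at chr2:98666224-98667403 and 50.8 at chr2:98662237-98662929. The latter pair, with the peak between them at chr2:98664983-98665262, were also the farthest from any start, 2.34 to 2.35 Mb from *Lrrc4c*, and no gene is annotated there. The ΔIkE120 peaks over these strongest regions had a -log10 q of 87.0, 89.8 and 48.4, and covered 98.7%, 99.4% and 95.1% of them. Next were chr13:48546000-48546574, at 45.7, and chr14:61647280-61648845 in the lncRNA gene *Dleu2*, at 42.7. No annotation of repeats was used, and whether reads from repeated sequence gather in such peaks was not tested.

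Length picked out other regions. The longest, chr13:28416445-28419869 with 3425 bp, was inside the lncRNA gene *Gm40841* between *Prl5a1* and *Sox4*, and 3 ΔIkE120 peaks covered 84.1% of it. The second, chr12:106308533-106311941 with 3409 bp, was 274 kb from *Vrk1*, between that gene and *Gm46320*, and a single ΔIkE120 peak covered 96.9%. A peak of 2840 bp 30.8 kb from *Thy1*, the gene of a thymocyte surface protein, was at chr9:44011138-44013977 with a -log10 q of 13.6, and 12.9 in ΔIkE120 cells. The fifth, with 2778 bp, was between *Esp15* and *Esp38*, at chr17:39843153-39845930. For this peak, too, the part of repeated sequence was not tested. Apart from the peaks 2.34 to 2.35 Mb from *Lrrc4c*, the farthest from a start was chr2:46370813-46371089, 1254 kb from *Zeb2* and without an overlap. Next was chr14:113932015-113932783, 1160 kb from *Gpc5* and 65.9% covered.

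Some intergenic distal peaks were the starts of non-coding genes. Each peak was put in 1 class only, and the 153 peaks in antigen receptor loci were a class of their own. A lncRNA start was covered by 265 (2.61%), and 1909 others outside these loci (18.8%) had their centre inside a lncRNA gene. No annotated gene was touched by 7625 (75.1%). Peaks over a lncRNA start were longer and stronger, with a median of 921 bp and a -log10 q of 5.91, and 88.3% (83.8% to 91.9%) of them were overlapped. For those with no annotated gene this was 479 bp, 3.05 and 63.7% (62.6% to 64.8%). Peaks over a lncRNA start took 12 places among the 100 strongest intergenic distal peaks, all of which were overlapped.

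The promoters of these lncRNAs could be read from the RefSeq table of GRCm38.p6, which gives 250 bases before to 50 bases after each start. There were 7181 lncRNA starts that met the rule on genes and starts, and an intergenic distal peak covered 292 of them (4.07%). In 227 of these, or 77.7% (72.5% to 82.4%), the start was in a ΔIkE120 peak as well. Covered promoters were richer in CG dinucleotides. Their median ratio of observed to expected CG was 0.347 against 0.205 for the 6889 starts without an intergenic distal peak, and 25.7% against 4.85% had a ratio above 0.6. Over all 32851 promoters of the table, 35.8% did. Covered means that the start was in a peak, and parts of the 300 bases can lie outside it. Words bound by factors of T cell precursors were sought on either strand, and matches of different words may share bases. CCGGAAG, the ETS word, was in 32 of the 292 covered promoters, in 2.53% of the others and in 8.86% of all promoters. The RUNX word TGTGGT was in 20.5%, 21.1% and 16.8%, and the E protein word CAGCTG in 17.8%, 17.3% and 16.3%. The word of TCF and LEF factors, CTTTGA, was in 23.3% of covered promoters and 20.4% of the others, and in 5257 of the 32851. The GATA factor word AGATAA was in 9.93%, 16.2% and 11.2%, and the Myc word CACGTG in 11.3%, 5.34% and 7.15%. ETS and Myc words were thus more frequent in covered promoters than in the other lncRNA promoters, as CG was, and the part of base composition in this was not tested.

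The promoters at the starts covered by the 5 strongest peaks of this kind show how these sequences vary, and were picked after their values were seen. Each is printed, on GRCm38.p6, from 5′ to 3′ on the strand of its gene, with matches to any of the words in capitals.
*Gm34590* (chr15:36937745-36938044, plus strand): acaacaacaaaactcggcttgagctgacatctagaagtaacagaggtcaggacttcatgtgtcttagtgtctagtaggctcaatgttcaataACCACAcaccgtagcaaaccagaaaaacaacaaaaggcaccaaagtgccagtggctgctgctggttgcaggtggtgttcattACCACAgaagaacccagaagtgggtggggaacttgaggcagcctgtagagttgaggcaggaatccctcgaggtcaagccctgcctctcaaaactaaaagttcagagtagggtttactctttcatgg
*D230017M19Rik* (chr1:72243743-72244042, plus strand): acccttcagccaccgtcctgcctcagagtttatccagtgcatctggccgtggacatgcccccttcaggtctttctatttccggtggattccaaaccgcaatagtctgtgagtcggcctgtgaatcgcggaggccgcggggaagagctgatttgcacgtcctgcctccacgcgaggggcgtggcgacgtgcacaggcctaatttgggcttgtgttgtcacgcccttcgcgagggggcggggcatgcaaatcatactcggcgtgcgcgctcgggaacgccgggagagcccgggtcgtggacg
*Gm36220* (chr11:106500665-106500964, plus strand): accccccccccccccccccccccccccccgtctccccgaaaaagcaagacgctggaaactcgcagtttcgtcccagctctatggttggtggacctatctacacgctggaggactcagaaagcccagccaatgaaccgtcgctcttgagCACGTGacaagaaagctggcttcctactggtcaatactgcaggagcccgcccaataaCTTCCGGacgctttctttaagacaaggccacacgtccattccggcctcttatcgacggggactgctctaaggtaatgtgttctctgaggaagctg
*Chaserr* (chr7:73558346-73558645, minus strand): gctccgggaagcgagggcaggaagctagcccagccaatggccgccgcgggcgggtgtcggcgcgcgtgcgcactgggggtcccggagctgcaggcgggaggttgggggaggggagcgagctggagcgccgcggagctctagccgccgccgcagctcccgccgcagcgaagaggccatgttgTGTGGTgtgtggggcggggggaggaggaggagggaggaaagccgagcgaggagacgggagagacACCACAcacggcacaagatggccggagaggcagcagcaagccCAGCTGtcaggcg
*Snhg20* (chr11:117076533-117076832, plus strand): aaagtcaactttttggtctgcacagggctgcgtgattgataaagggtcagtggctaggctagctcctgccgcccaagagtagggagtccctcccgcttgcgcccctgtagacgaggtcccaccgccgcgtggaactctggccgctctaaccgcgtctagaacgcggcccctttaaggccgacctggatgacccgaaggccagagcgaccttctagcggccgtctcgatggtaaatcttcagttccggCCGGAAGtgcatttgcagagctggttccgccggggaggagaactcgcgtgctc
The peaks over these starts had a -log10 q of 28.0, 27.4, 27.3, 26.6 and 22.7, in the order printed, and all 5 were overlapped in ΔIkE120 cells. The first has 3 CG dinucleotides in 300 bases and a ratio of 0.177, and the others have 16 to 30, with ratios from 0.676 to 0.987. An ETS word is in the promoters of *Gm36220* and *Snhg20*, a host gene of a small nucleolar RNA, and the former also has the Myc word. *Chaserr*, a lncRNA known to restrain its neighbour *Chd2*, has 2 RUNX words and an E protein word. No match says only that these letters are not in this window.

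Some miRNA genes beside these regions have known roles in lymphocytes. Of 347 miRNA hairpins of the RefSeq table outside protein-coding gene bodies, 39 (11.2%) had an intergenic distal peak within 2.5 kb and 13 were touched by one. Since neighbouring hairpins share peaks, the nearest to these 39 were 23 distinct peaks, of which 20 were overlapped in ΔIkE120 cells, against 65.1% of all intergenic distal peaks. The gene of miR-142 (chr11:87756864-87756927) lay 1551 bases from the last of the 6 peaks in its interval. Its mature forms in RefSeq are printed with the seed, bases 2 to 8, in capitals.
miR-142a-5p: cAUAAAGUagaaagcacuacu
miR-142a-3p: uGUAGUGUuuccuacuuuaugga
A pair of related clusters, miR-17 to miR-92a-1 on chromosome 14 and miR-106a to miR-363 on the X chromosome, lay beside a peak each. The first cluster is known to promote survival and growth of lymphocytes. Its peak, chr14:115040229-115042686, was 2458 bp long with a -log10 q of 16.8, and ended 985 bases before the hairpin of miR-17. The second had a peak of 1658 bp (chrX:52744132-52745789) with a -log10 q of 8.64, 1565 bases from the hairpin of miR-106a. Both were overlapped in ΔIkE120 cells. The clusters share their seeds, as their mature forms show when grouped by them.
miR-17-5p: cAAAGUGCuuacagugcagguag
miR-20a-5p: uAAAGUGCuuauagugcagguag
miR-106a-5p: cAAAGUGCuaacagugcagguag
miR-20b-5p: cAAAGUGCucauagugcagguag
miR-18a-5p: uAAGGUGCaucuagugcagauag
miR-18b-5p: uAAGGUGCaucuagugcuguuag
miR-19a-3p: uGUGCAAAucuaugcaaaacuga
miR-19b-3p: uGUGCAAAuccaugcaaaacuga
miR-92a-3p: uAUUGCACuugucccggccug
miR-363-3p: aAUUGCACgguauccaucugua
The genes of miR-19b and miR-92a have a copy in either cluster. Other hairpins were under a peak themselves. That of let-7i (chr10:122985640-122985724) was inside a peak of 2272 bp with a -log10 q of 20.0, and those of miR-23a, miR-27a and miR-24-2 shared one of 1267 bp at chr8:84207958-84209224 with 15.2. These peaks were overlapped in ΔIkE120 cells, whereas the peak over the hairpin of miR-212 (chr11:75173339-75173614, 276 bp, -log10 q 2.78) was not. The hairpin of miR-132 lay 68 bases from this peak. Their mature forms are given in the same way, and those of miR-132 and miR-212 share a seed.
let-7i-5p: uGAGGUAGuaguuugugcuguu
miR-23a-3p: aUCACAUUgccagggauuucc
miR-27a-3p: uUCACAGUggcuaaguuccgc
miR-24-3p: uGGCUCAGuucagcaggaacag
miR-132-3p: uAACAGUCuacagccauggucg
miR-212-3p: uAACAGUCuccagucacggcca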

How the data were processed

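H3K27ac ChIP-seq was analysed from 1 wt and 1 ΔIkE120 library of P5424 cells. The submitters' processing notes name Bowtie2 2.3.4.3, MACS2 2.1.1, deepTools 3.2.1 and GRCm38 for the series. Each library had 1 deposited list of broad peaks without read counts, so its depth is unknown. The deposited score of each peak follows its -log10 q-value. The authors also deposited a fold enrichment, which is a ratio over background, and a -log10 p-value and -log10 q-value. The column meanings were taken from the broad peak format. The 4C-seq files of the series were not used here.

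Genes were those of RefSeq on GRCm38.p6, of which 21787 were protein-coding, after 348 genes of unplaced scaffolds had been left out. Promoters of chromosome 18 were left out of the lncRNA counts. Starts were gene ends on the gene's strand and the starts in the RefSeq promoter table. The strand came from that table or from GENCODE M1 by symbol, and 654 genes without one had both ends counted as starts. Overlap meant at least 1 shared base. Shares have exact (Clopper-Pearson) 95% intervals and medians exact intervals from order statistics. Named were the 10 intervals with the most peaks, the 5 densest with at least 5 peaks, the 5 with the most peaks without an overlap (all with ties), the 5 strongest, longest and farthest peaks, those between *Zpbp* and *Ikzf1*, and the gene lists and markers in the text. Groups of neighbours (a slightly longer joining distance, tried first, gave the same largest group but ranked a group between *Trim33* and *Syt6* second), intervals of extreme share, single strong peaks without an overlap, lncRNAs and miRNAs were chosen after their values were seen. Some genes of the lists are not reported here. The members and lists were chosen with earlier results of these data known. Alternatives changed the distance from a start, the genes, the threshold, the joining of peaks, the overlap and the weight of strong peaks. A genome of the files' build was not used here, so peak sequences were not read. Overlap, classes and joining were tested on simulated data. Python 3.11.15, numpy 2.4.6, pandas 2.3.3 and scipy 1.17.1 were used.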

Additional observations from a re-analysis of the deposited data

How the results depend on the processing

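Of 60 recalculations, 28 stayed within the interval of the value (for counts, within 1.5 times). Limits of 1 and 5 kb from a start gave shares of wt peaks of 30.5% and 27.9% and median distances of 32.4 and 37.5 kb. Without starts of genes of unknown strand the distance was 35.8 kb. With all annotated genes, non-coding ones included, the share was 20.3%, the median length 480 bp, the distance 14.5 kb and the share overlapped 63.3%. With the stronger peaks of either list, those not below its median -log10 q, the rule gave 3564 peaks (20.6%), a median length of 811.5 bp, a distance of 31.5 kb and 63.6% overlapped. With peaks closer than 1 kb joined, the median length was 636 bp and 66.5% were overlapped. The share overlapped was 56.6% when 50% of the wt peak had to be covered, 70.7% with a ΔIkE120 peak within 500 bp, 72.7% for the same number of top peaks from each list, and 94.9% for the stronger wt peaks against all ΔIkE120 peaks. The difference of peaks near starts from intergenic distal peaks was then 33.5, 24.9, 21.7 and 4.15 percentage points, and 6.07 as a mean over deciles of -log10 q. The difference of peaks inside genes changed sign from -1.33 to 0.139 with the same number of top peaks, to 0.00093 with the stronger wt peaks and to 1.28 as a mean over deciles. Chosen after seeing the data, a mean over deciles weighted by intergenic distal peaks gave 1.58 inside genes and 7.77 near starts. The fullest interval had 6 peaks when ranked by density and 60 without antigen receptor loci, the latter also chosen after seeing the data. The cause was not tested, apart from what the alternatives themselves change. No paired analysis was possible because there was 1 library per genotype. Unknown depth limits the weak peaks most, since a peak missing from a list may have fallen below the threshold of its library.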
